A study of Mus musculus with 8 samples.

Results

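The 36 genes described here encode lysosomal enzymes, lysosomal membrane proteins and a pair of transcription factors that act on such genes. They are 6 membrane proteins, 9 peptidases, 10 glycosidases, 4 sulfatases, 5 genes of lipid breakdown and its cofactors, and Tfeb and Tfe3. The set was drawn up by gene name, with earlier results of these data known. Its values were read from the row of each symbol in the expression table of every library. All 36 were found, out of 23337 symbols, each on 1 row, and all 36 were above 0 in every library. All 36 also passed the filter for testing, a mean of at least 1 TPM (a length-corrected share of all transcripts), as did 11578 symbols in all.

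The lysosome is the acidic compartment in which cells degrade proteins, glycans and lipids that reach it through endocytosis and autophagy. Most of its soluble enzymes are glycoproteins that are made in the endoplasmic reticulum, tagged with mannose phosphate in the Golgi and sorted to the lysosome by vesicles. Transcription factors of the Tfeb family bind E-box motifs near many lysosomal genes, and nutrient signalling at the lysosomal surface holds these factors in the cytoplasm.

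The study asked what loss of Trappc1, a subunit of the TRAPP complexes that tether vesicles on the way to and through the Golgi, does to naive T cells. Naive CD4 and CD8 T cells, gated as CD62L+ CD44low, came from mice aged 4 weeks, out of spleens and the nodes that the labels abbreviate as mLNs. The knockout (KO) animals were CD4-cre Trappc1 cKO, in which Cre is expressed in developing T cells, so both lineages pass through a stage with Cre, and wild-type (WT) animals, for which the labels state no Cre allele, served as controls. RNA sequencing gave 2 libraries each of CD4 KO, CD4 WT, CD8 KO and CD8 WT cells. The sources used here give neither the deleted part of Trappc1 nor whether the 2 libraries of a group came from separate mice. The spread behind each p-value is thus that between libraries, and it may be technical.

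Depth was 3.03 to 4.01 gigabases of aligned sequence per library, and 5952 to 10634 symbols were listed at 0. Trappc1 itself, at chr11:69323986-69325793, stood at 30.5 and 32.8 TPM in CD4 KO cells, against 78.7 and 55.0 TPM in CD4 WT cells (limma log2 difference -1.03 ± 0.28, SE, adjusted p = 0.0587). In CD8 cells it was 56.9 and 45.6 TPM in KO, against 81.2 TPM in WT replicate 1 and 40.3 TPM in WT replicate 2. The tables give 1 value for the whole gene, so they do not isolate the deleted part. Cd4 was at most 14.5 TPM in the CD8 libraries and at 543 to 764 TPM in the CD4 libraries, and Cd8a was at 163 to 548 TPM in the CD8 libraries and at most 4.10 TPM in the CD4 libraries. CD8 WT replicate 2 stood apart from the rest. Its 20 myeloid markers summed to 31032 TPM and its 8 erythroid markers to 90336 TPM, against at most 2355 and 2148 TPM in any other library. Replicate 2 was set aside for that reason and since lysosomal genes were raised in it in earlier results of these data. The choice thus also drew on levels of genes like those described here. CD8 WT replicate 1 alone stands for CD8 WT in what follows, and its lone value is assumed to vary like those of the other groups. The values of replicate 2 are given beside it.

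Known Tfeb family targets carry E-box motifs near their start sites, so the sequences upstream of these genes are shown for the members that held the longest motif found. RefSeq (GRCm38.p6) promoter windows, 250 bases before to 50 bases after the start, were available for 34 of the 36 genes, all but Asah1 and Ctsb. Both strands were searched. The E-box motifs were picked because such genes are known to carry them, so their shares below describe the set and test nothing. The palindrome TCACGTGA was found in 4 of the 34 windows (11.8%), those of Ctsd, Ctsa, Mcoln1 and Gla, against 1.12% of 27025 mouse symbols with such a window. Capitals mark the palindrome in these stretches, read 5′ to 3′ on the strand of the gene. Ctsd is at chr7:142387859-142387986 on the minus strand, Ctsa at chr2:164833700-164833797 on the plus strand, Mcoln1 at chr8:3500413-3500540 on the plus strand and Gla at chrX:134601133-134601255 on the minus strand.
Ctsd: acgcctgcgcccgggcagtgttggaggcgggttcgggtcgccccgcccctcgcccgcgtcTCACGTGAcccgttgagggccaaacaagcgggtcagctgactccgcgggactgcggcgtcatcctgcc
Ctsa: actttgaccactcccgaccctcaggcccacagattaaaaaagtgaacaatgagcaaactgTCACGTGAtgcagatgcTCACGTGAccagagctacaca
Mcoln1: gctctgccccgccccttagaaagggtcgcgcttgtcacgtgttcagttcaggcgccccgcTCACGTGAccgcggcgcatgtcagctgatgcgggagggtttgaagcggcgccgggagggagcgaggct
Gla: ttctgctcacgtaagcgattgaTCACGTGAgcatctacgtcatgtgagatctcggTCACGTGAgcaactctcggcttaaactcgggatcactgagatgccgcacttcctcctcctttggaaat
The match in Ctsd lay 99 bases before its start and the match in Mcoln1 46 bases before, while Gla had a pair of matches up to 228 bases before its start and Ctsa a pair around the later of its 2 RefSeq starts, which lies inside the gene as annotated from the earlier start.

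A shorter form without 1 end base, TCACGTG or its complement CACGTGA, was present in 11 of 34 windows (32.4%), against 4.29% of all symbols. It overlaps the palindrome, so the 4 genes above are among the 11, and the others are Lamp1, Lgmn, Gaa, Glb1, Naglu, Arsa and Sgsh. The hexamer inside it, CACGTG, added only Ctsl, giving 12 of 34 windows (35.3%) against 8.09%. The 10-letter palindrome GTCACGTGAC was in none of the 34 windows, against 0.37% of all symbols. The GC box, GGGCGG or its complement CCGCCC, was in 22 of 34 (64.7%), against 38.2%. The median GC content was 56.3% in these windows and 52.7% in all of them.

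The Lamp1 window, at chr8:13159039-13159185 on the plus strand, held 4 copies of the shorter form, the most among these genes, and is shown for that reason, which was known only after the search. Capitals mark the copies.
Lamp1: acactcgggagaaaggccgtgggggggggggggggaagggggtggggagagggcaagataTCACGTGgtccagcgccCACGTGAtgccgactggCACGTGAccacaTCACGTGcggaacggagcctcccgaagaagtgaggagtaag
Such a match is a run of letters and not a measured site of binding. In CD4 KO cells 5 of the 11 genes with the shorter motif were higher than in WT, with a median log2 difference of -0.04, and 14 of the 23 genes without it were higher, with a median of 0.13. In CD8 KO cells the same counts were 4 of 11, with a median of -0.26, and 14 of 23, with a median of 0.17.

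Mean levels of the 36 genes ran from 3.5 TPM for Ids to above 1000 TPM, as the plot of levels by library shows. Psap, whose product is cut into the saposins that help enzymes reach sphingolipids, and Laptm5, a lysosomal membrane protein of blood cells that directs T cell receptor subunits to degradation, stood far above the rest. Mean TPM over the 7 libraries (all but CD8 WT replicate 2) was 1991 for Psap and 1690 for Laptm5, and 423 for Ctsc, the next gene. The coverage deposited for Psap, 569 to 1038 over the libraries, was low for its TPM, against 1518 to 3300 for Laptm5 and 330 to 917 for Ctsc, so the rank of Psap and its share of any sum of TPM are uncertain. Of the 36 genes, 11 averaged at least 100 TPM. At the other end 6 averaged under 10 TPM, namely Gla, Glb1, Galc, Sgsh, Ids and Tfeb.

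**Figure D1:**
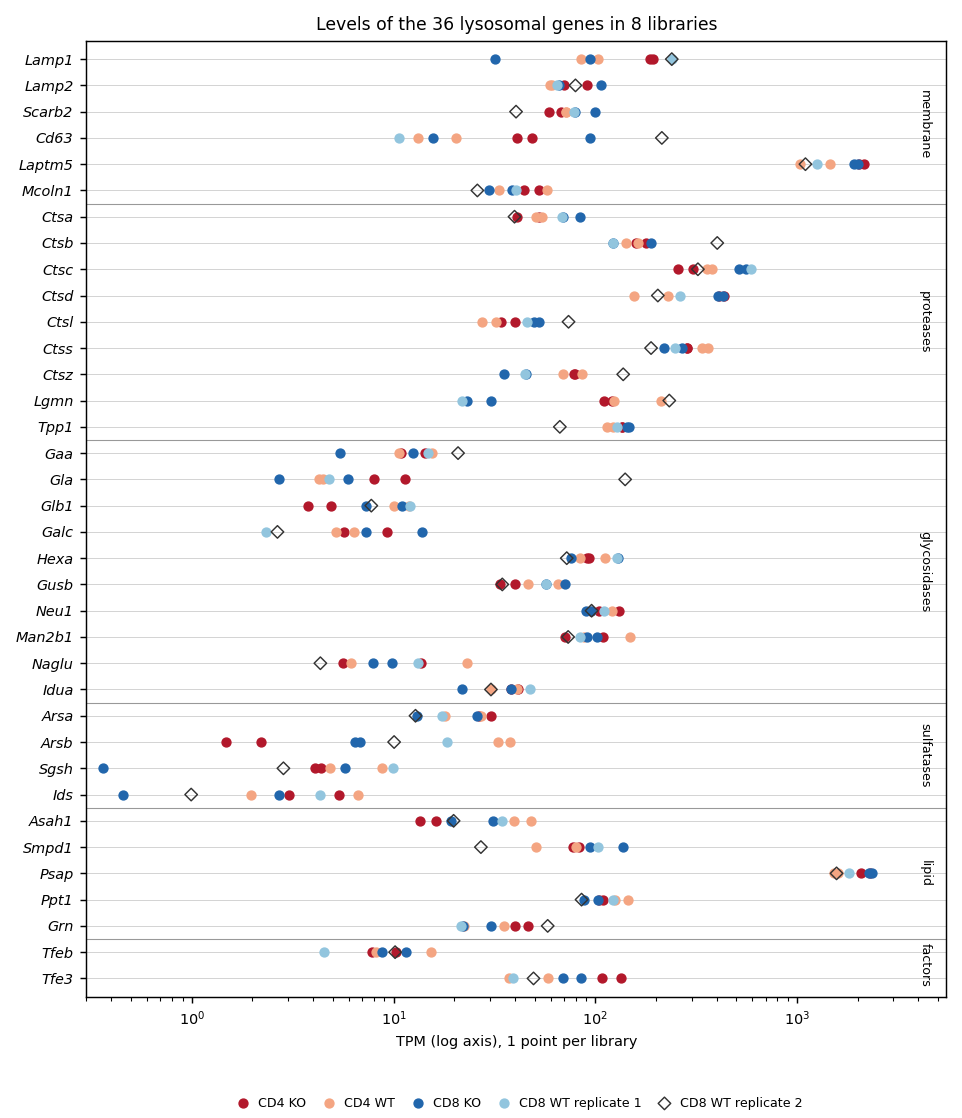
TPM of each of the 36 genes on a log axis, with 1 point for each library, coloured by group and ordered by the class of the product. Psap and Laptm5 lie above 1000 TPM in all 8 libraries, and the open diamonds of CD8 WT replicate 2 lie far to the right for Gla, Cd63 and Ctsb.

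Summed over the set, these genes made up 6832 and 7371 TPM in CD4 KO cells, against 5128 and 5803 TPM in CD4 WT cells. In CD8 cells the sum was 7122 and 7091 TPM in KO, against 5891 TPM in WT replicate 1 and 5699 TPM in WT replicate 2. Every KO library was thus above every WT library of its lineage. By these TPM values, and with the Psap level uncertain as above, Psap and Laptm5 together made up 60.0% and 60.1% of the sum in CD4 KO cells, against 49.7% and 52.7% in CD4 WT cells. The other 34 genes summed to 2730 and 2940 TPM in CD4 KO cells, against 2578 and 2746 TPM in CD4 WT cells. They summed to 2776 and 2887 TPM in CD8 KO cells, against 2815 TPM in CD8 WT replicate 1, so for these 34 genes KO and WT libraries overlapped in both lineages. In bulk RNA, fewer cells of a type and less RNA per cell cannot be told apart.

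In CD4 T cells, loss of Trappc1 was accompanied by changes in 5 of the 36 lysosomal genes, and these went both ways. Laptm5, Ctsd and Tfe3 rose, and Arsb and Asah1 fell (limma, 7 libraries, adjusted p at most 0.05). Over all 11578 genes 7.99% were called, 2.64% higher and 5.35% lower. In direction alone 20 of the 36 were higher and 16 lower, with a median log2 difference of 0.11, whereas all genes had a median of -0.17 and 41.3% of them were higher. With scaling by the median of ratios the median of all genes moved to 0.01, 24 of the 36 genes were higher and the split of calls over all genes turned to 467 higher and 396 lower, against 306 and 619. Of the 36, 24 lay within 0.5 of 0 on the log2 scale. For 21 genes, 11 higher and 10 lower, both KO libraries lay outside the range of the WT libraries, and over all genes this was so for 58.5%, 21.5% higher and 37.0% lower. Leaving out a CD4 library left 1 library in its group. Without either CD4 KO library no member was called, and most calls over all genes were lost too. Without CD4 WT replicate 1 Arsb alone kept its call, and calls over all genes also fell. The median log2 difference of the 36 was 0.12 without CD4 KO replicate 1, 0.05 without CD4 KO replicate 2 and -0.06 without CD4 WT replicate 1. With CD8 WT replicate 2 in place of replicate 1, 3 were called (6.13% of all genes). With all 8 libraries in the fit, only Arsb was called, at a background of 0.713%.

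**Figure D2:**
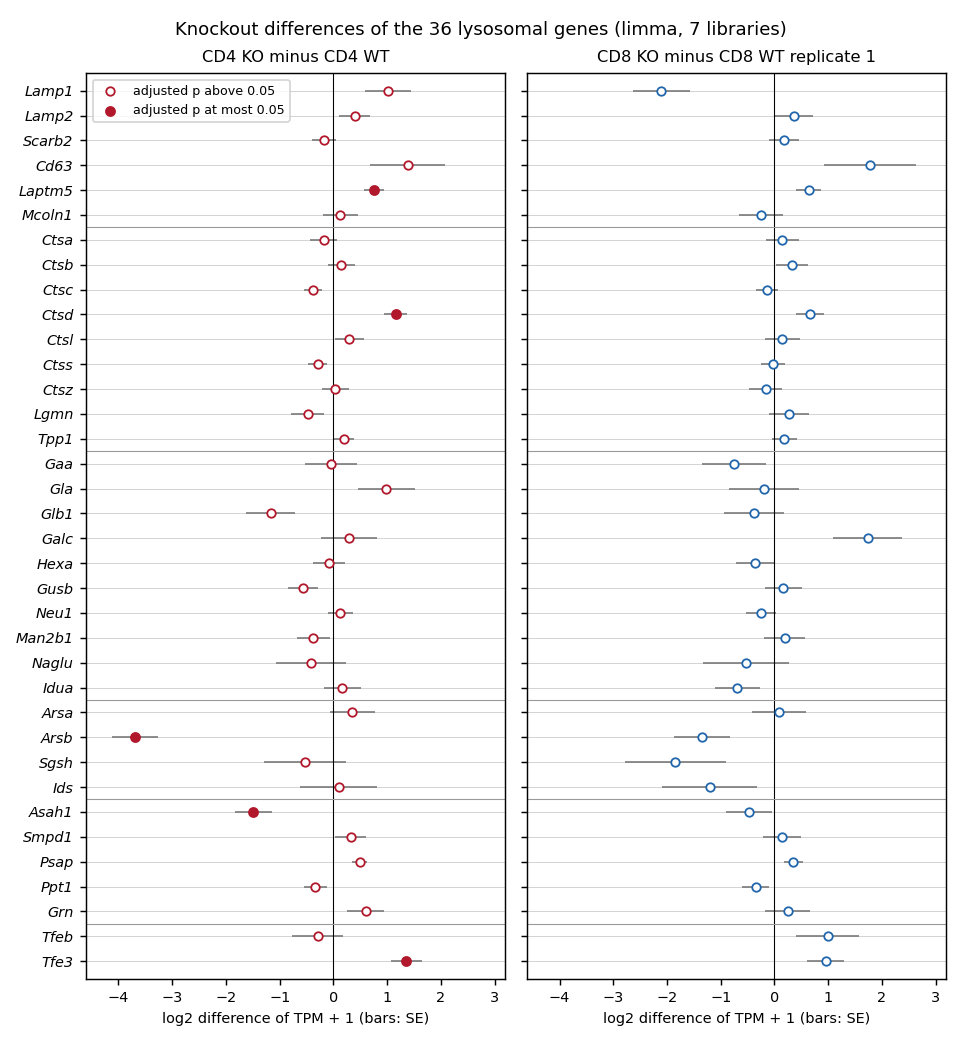
Log2 difference of TPM + 1, KO minus WT, for each of the 36 genes in CD4 cells (left) and CD8 cells (right), from limma on 7 libraries, with bars for 1 SE. The 5 filled points are the genes with an adjusted p of at most 0.05, all of them in CD4 cells, with Arsb at -3.69 farthest from 0.

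Among the 6 membrane proteins, 5 were higher in CD4 KO cells and 1 passed the test. Laptm5, at chr4:130913334-130936148, measured 2021 and 2136 TPM in CD4 KO cells, against 1031 and 1457 TPM in CD4 WT cells. Both KO libraries were above both WT libraries, and the WT libraries were farther apart than the KO libraries. The log2 difference was 0.76 ± 0.19 (SE, limma, adjusted p = 0.0452), and it was called under 7 of 18 alternative settings (adjusted p 0.0186 to 0.227). Lamp1, a main glycoprotein of the lysosomal membrane, read 193 and 187 TPM in CD4 KO cells and 84.9 and 104 TPM in CD4 WT cells, without overlap. Its log2 difference was 1.01 ± 0.43 (adjusted p = 0.174). It was called under 3 of 18 alternatives, within a range of 0.0343 to 0.475. These were a limma fit of the CD4 groups alone (adjusted p = 0.0343) and the fits without CD8 KO replicate 1 or replicate 2. The spread shared with the CD8 KO libraries thus bears on its CD4 call. Cd63, a tetraspanin of late endosomes and lysosomes, had 48.8 and 40.7 TPM in CD4 KO cells, against 20.5 and 13.2 TPM in CD4 WT cells (log2 difference 1.39 ± 0.70, adjusted p = 0.243, and 0.0476 to 0.584 over the alternatives). The CD4 KO libraries were again above both WT libraries. Lamp2, Scarb2 and the calcium channel Mcoln1 lay between -0.18 and 0.39 on the log2 scale.

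Of the 9 peptidases, 5 were higher and 4 lower in CD4 KO cells, and 1 passed. Ctsd, the main aspartic protease of the lysosome, at chr7:142375916-142387870, read 410 and 437 TPM in CD4 KO cells, against 155 and 230 TPM in CD4 WT cells. The groups were clearly apart, and the log2 difference was 1.16 ± 0.21 (limma, adjusted p = 0.0195). It was called under 13 of 18 alternatives (adjusted p 0.00957 to 0.166). Its promoter is the first of those shown above. Ctsc, the dipeptidyl peptidase that activates granule serine proteases and the most abundant peptidase of the set, was at 257 and 306 TPM in CD4 KO cells, against 356 and 377 TPM in CD4 WT cells (log2 difference -0.38 ± 0.17, adjusted p = 0.192). The other 7 lay between -0.47 for Lgmn, the asparaginyl endopeptidase, and 0.30 for Ctsl, a cysteine protease. Ctss, a cysteine protease that trims the invariant chain in antigen-presenting cells, was at 286 TPM in both CD4 KO libraries, against 361 and 340 TPM in CD4 WT cells. The median log2 difference of the 9 was 0.04.

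The 10 glycosidases, which strip sugars from glycans and glycolipids, had no member that passed in CD4 cells, and 4 were higher and 6 lower. Neu1, a sialidase and the most abundant of them, had 105 and 131 TPM in CD4 KO cells, against 95.1 and 121 TPM in CD4 WT cells, and the libraries interleaved. Glb1, the beta-galactosidase, averaged 4.33 ± 0.77 TPM in CD4 KO cells and 11.0 ± 1.35 TPM in CD4 WT cells (SD, n = 2 each), without overlap (log2 difference -1.17 ± 0.46, adjusted p = 0.147). Its annotated span shares 10083 bases on the same strand with Tmppe, so its value is uncertain. Gla was the highest of the class in difference (0.98 ± 0.53, adjusted p = 0.271) at levels of 11.4 and 8.01 TPM in CD4 KO cells, against 4.25 and 4.45 TPM in CD4 WT cells. The remaining 7, besides Neu1, Glb1 and Gla, lay between -0.57 for Gusb and 0.30 for Galc.

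The sulfatases held the largest change of the set. Arsb removes sulfate from dermatan and chondroitin sulfate, and its span of 171 kb, at chr13:93771679-93943016, is the longest of the 36. Its level was 2.20 and 1.48 TPM in CD4 KO cells, against 32.8 and 38.0 TPM in CD4 WT cells. The KO libraries were low together and the WT libraries high together. The log2 difference was -3.69 ± 0.43 (limma, adjusted p = 0.00467), and Arsb was called under 15 of 18 alternatives (adjusted p 0.00145 to 0.0766). Leaving out either CD4 KO library kept the size (-3.87 and -3.51) but not the call (adjusted p = 0.0766 and 0.0751). Arsa, the sulfatase of sulfatide, averaged 28.4 ± 2.66 TPM in CD4 KO cells and 22.4 ± 6.43 TPM in CD4 WT cells (SD, n = 2 each), with values that overlapped. Sgsh, which takes sulfate from heparan sulfate, was at 4.38 and 4.06 TPM in CD4 KO cells, against 4.84 and 8.75 TPM in CD4 WT cells. Ids, at 1.96 to 6.64 TPM in the CD4 libraries, had no consistent order.

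Among the 5 genes of lipid breakdown, Asah1, the acid ceramidase, fell in CD4 KO cells. It stood at 16.3 and 13.5 TPM in CD4 KO cells, against 48.0 and 39.4 TPM in CD4 WT cells, without overlap. The log2 difference was -1.49 ± 0.35 (limma, adjusted p = 0.0384), and scaling by the median of ratios put it outside the threshold (-1.29, adjusted p = 0.0632). It was called under 8 of 18 alternatives (adjusted p 0.0199 to 0.195). Psap had 2080 and 2296 TPM in CD4 KO cells, against 1519 and 1600 TPM in CD4 WT cells. Its difference of 0.49 ± 0.14 missed the threshold (adjusted p = 0.0747) and passed with scaling by the median of ratios (0.69, adjusted p = 0.0271) and with FPKM in place of TPM (adjusted p = 0.037), in a range of 0.0271 to 0.399 over the alternatives. Grn, the progranulin gene, was at 40.0 and 46.4 TPM in CD4 KO cells, against 22.4 and 35.2 TPM in CD4 WT cells (adjusted p = 0.294). Smpd1, the acid sphingomyelinase, and Ppt1, which removes fatty acids from proteins, lay at 0.32 and -0.33 on the log2 scale.

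The transcription factors of the set differed from each other. Tfe3, at chrX:7762661-7775202, read 108 and 135 TPM in CD4 KO cells, against 37.3 and 58.3 TPM in CD4 WT cells. The libraries did not overlap, and the log2 difference was 1.35 ± 0.29 (limma, adjusted p = 0.0288), with a call under 10 of 18 alternatives (adjusted p 0.0142 to 0.178). Tfeb was at 7.79 and 10.3 TPM in CD4 KO cells, against 8.18 and 15.3 TPM in CD4 WT cells, and the libraries overlapped (-0.30 ± 0.48, adjusted p = 0.728). The coverage deposited for Tfeb was only 0.32 to 0.94 over the libraries, whereas Galc, of similar TPM, had 3.55 to 21.0, so the Tfeb level is the less certain.

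**Figure D3:**
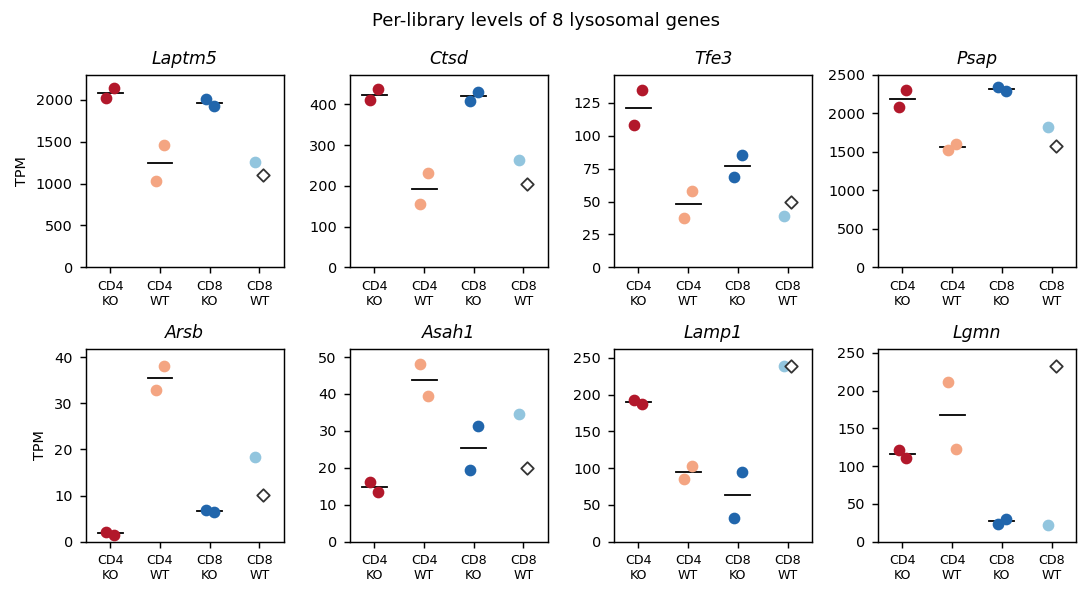
TPM of 8 genes by group, with 1 point for each library and a bar at the mean of the groups of 2, the open diamond being CD8 WT replicate 2. In both lineages the KO points of Laptm5, Ctsd, Tfe3 and Psap lie above the WT points and those of Arsb below, whereas Lamp1 is higher in CD4 KO and lower in CD8 KO than in WT.

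In CD8 T cells 0 of the 36 genes were called (limma, 7 libraries), 6 had an unadjusted p under 0.05, and over all genes 0.846% were called, 0.406% higher and 0.44% lower. The set had 19 genes higher and 17 lower, with a median log2 difference of 0.11 against -0.08 over all genes. The KO libraries did not overlap with CD8 WT replicate 1 for 30 genes, 17 higher and 13 lower, at a background of 73.9% (32.7% higher and 41.2% lower). With both CD8 WT libraries this was 14 genes, 10 higher and 4 lower, against 42.3% of all genes (23.6% higher and 18.7% lower). With CD8 WT replicate 2 in place of replicate 1, 9 of the 36 genes were called, at a background of 15.2% (1809 of 11879 genes).

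The genes that rose in CD4 KO cells also read higher in CD8 KO cells, without passing the test. Laptm5 had 2005 and 1920 TPM in CD8 KO cells, against 1260 TPM in CD8 WT replicate 1 and 1101 TPM in replicate 2 (0.64 ± 0.23, adjusted p = 0.211). Ctsd had 407 and 432 TPM in CD8 KO cells, against 264 and 204 TPM in CD8 WT replicates 1 and 2 (0.67 ± 0.26, adjusted p = 0.254). Tfe3 had 68.8 and 85.2 TPM in CD8 KO cells, against 39.1 and 49.4 TPM in the CD8 WT replicates (0.95 ± 0.35, adjusted p = 0.225). For these 3 genes both KO libraries were above both WT libraries. Psap, at 2341 and 2284 TPM in CD8 KO cells against 1816 and 1570 TPM in CD8 WT cells, had the same order. Arsb was at 6.79 and 6.42 TPM in CD8 KO cells, against 18.4 and 10.1 TPM in the CD8 WT replicates (-1.35 ± 0.52, adjusted p = 0.246), again in the direction of CD4 cells. Asah1 was at 19.3 and 31.3 TPM in CD8 KO cells, against 34.7 and 19.9 TPM in the CD8 WT replicates, which overlap.

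The largest CD8 difference was that of Lamp1, which was at 31.9 and 94.2 TPM in CD8 KO cells, against 239 TPM in both CD8 WT libraries. The KO libraries were below both WT libraries but stood well apart from each other. The log2 difference was -2.10 ± 0.52 (limma, adjusted p = 0.108, and 0.0461 to 0.393 over the alternatives). Sgsh was at 5.75 and 0.364 TPM in CD8 KO cells, against 9.91 TPM in CD8 WT replicate 1 and 2.85 TPM in replicate 2, so its difference of -1.85 ± 0.94 (adjusted p = 0.375) rested on a single KO library. Cd63 was at 15.7 and 93.7 TPM in CD8 KO cells, against 10.6 and 214 TPM in the CD8 WT replicates, and its difference of 1.78 ± 0.85 turned to -0.33 with both WT libraries. Galc, which cleaves galactosylceramide, was at 7.28 and 13.9 TPM in CD8 KO cells, against 2.34 and 2.66 TPM in the CD8 WT replicates (1.73 ± 0.64, adjusted p = 0.225). Tfeb was at 8.75 and 11.5 TPM in CD8 KO cells, against 4.53 and 10.2 TPM in the CD8 WT replicates. Neu1 and Arsa overlapped or nearly so, at 90.0 and 95.8 TPM in CD8 KO against 110 and 95.9 TPM in CD8 WT for Neu1, and at 13.1 and 26.0 TPM against 17.4 and 12.9 TPM for Arsa.

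Whether the knockout effect differed between the lineages was tested as the difference of the effects, CD8 minus CD4. Of the 36 genes 0 were called (limma, 2 at an unadjusted p under 0.05), at a background of 0.0259%. Those 2 were Lamp1, higher in CD4 KO and lower in CD8 KO cells (-3.11 ± 0.68, adjusted p = 0.347), and Arsb, lower in both and more so in CD4 KO cells (2.34 ± 0.67, adjusted p = 0.474). The CD4 and CD8 differences had the same sign for 23 of the 36 genes, and for 67.8% of all genes. The CD4 and CD8 differences come from separate libraries but share 1 estimate of the spread.

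Between lineages of the same genotype, 2 cysteine peptidases differed between CD8 and CD4 cells. In KO cells 2 of the 36 were called (limma), at a background of 1.81%. Lgmn was at 23.1 and 30.6 TPM in CD8 KO cells, against 122 and 111 TPM in CD4 KO cells (-2.09 ± 0.31, adjusted p = 0.0163). Ctsc was at 557 and 515 TPM in CD8 KO cells, against 257 and 306 TPM in CD4 KO cells (0.93 ± 0.17, adjusted p = 0.0364). In WT cells 1 gene was called, at a background of 0.812%. It was again Lgmn, at 21.8 TPM in CD8 WT replicate 1, against 212 and 123 TPM in CD4 WT cells (-2.84 ± 0.38, adjusted p = 0.0131). CD8 WT replicate 2 read 233 TPM, and the call was absent with it in the fit (adjusted p = 0.661). The summed level of 7 B cell markers was also lower in CD8 than in CD4 cells, at 432 to 509 TPM in the CD8 libraries and 1932 to 2828 TPM in the CD4 libraries of the 7. In CD4 WT replicates 1 and 2 the sum was 2464 and 2828 TPM, where Lgmn was at 212 and 123 TPM. In CD8 WT replicate 2 the sum was 982 TPM, where Lgmn was at 233 TPM. The part of the B cell markers in the result was not tested. With all 8 libraries both calls in KO cells were lost (adjusted p = 0.466 for Lgmn and 0.385 for Ctsc). Ctsc was not called in WT cells, where its difference was 0.69 ± 0.21 (adjusted p = 0.306).

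Myeloid markers moved with the knockout, and lysosomal genes are abundant in myeloid cells. The 20 myeloid markers summed to 1466 and 2355 TPM in CD4 KO cells, against 444 and 211 TPM in CD4 WT cells. They summed to 1248 and 1649 TPM in CD8 KO cells, against 724 TPM in CD8 WT replicate 1. Of 18 tested, 16 were higher in CD4 KO cells, with a median log2 difference of 2.05. Of these 6 were called (Lyz2, Ngp, Ltf, S100a8, S100a9 and Cd68), against 7.99% of all genes. In CD8 cells 13 of 18 were higher and Lyz2 alone was called, against 0.846% of all genes. Cebpa was listed at 0 in all of the 7 libraries, so it was not among the 18 tested. Csf1r, another marker of the list, was at 4.78 and 9.20 TPM in CD4 KO cells, against 1.72 and 0.38 TPM in CD4 WT cells. In CD8 WT replicate 2, the library with the most myeloid and erythroid RNA, Laptm5 (1101 TPM), Ctsd (204 TPM) and Psap (1570 TPM) were lower than in CD8 WT replicate 1 (1260, 264 and 1816 TPM), and Tfe3 (49.4 TPM) was higher (39.1 TPM). Cd63, Gla, Lgmn, Ctsb, Ctsz, Grn and Tfeb were more than 2-fold higher there than in replicate 1. The 13 T cell markers summed to 8134 TPM in replicate 2, against 19063 TPM in replicate 1. T cell marker RNA thus took a smaller share of replicate 2, and the part of that in the levels of this library was not tested. The part of myeloid RNA in the KO differences of the lysosomal genes, Laptm5, Ctsd, Psap and Tfe3 included, was not tested.

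Erythroid, T cell and B cell marker sums also differed between KO and WT libraries. The 8 erythroid markers summed to 377 and 207 TPM in CD4 KO cells, against 16.2 and 118 TPM in CD4 WT cells, and 5 of the 6 tested were higher, with 0 called (3 at an unadjusted p under 0.05). In CD8 cells the order was the opposite, at 199 and 329 TPM in KO against 2148 TPM in WT replicate 1, with 0 of 6 higher, a median log2 difference of -2.85 and 0 called (5 at an unadjusted p under 0.05). The 13 T cell markers summed to 11677 and 12587 TPM in CD4 KO cells, against 15044 and 14878 TPM in CD4 WT cells. Of the 13, 4 were higher in CD4 KO cells. Lef1, Il7r and Cd2 were called lower and Ccr7 was called higher, where 5.35% of all genes were called lower and 2.64% higher. In CD8 cells they summed to 16351 and 14814 TPM in KO, against 19063 TPM in WT replicate 1, and Il7r was called lower. The 7 B cell markers summed to 2015 and 1932 TPM in CD4 KO cells, against 2464 and 2828 TPM in CD4 WT cells. Of the 7, 6 were lower in CD4 KO cells and Cd79b was called lower. In CD8 cells they summed to 502 and 509 TPM in KO, against 432 TPM in WT replicate 1, with 6 of the 7 higher and 0 called. The part of the erythroid, T cell and B cell markers in the lysosomal differences was not tested.

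**Figure D4:**
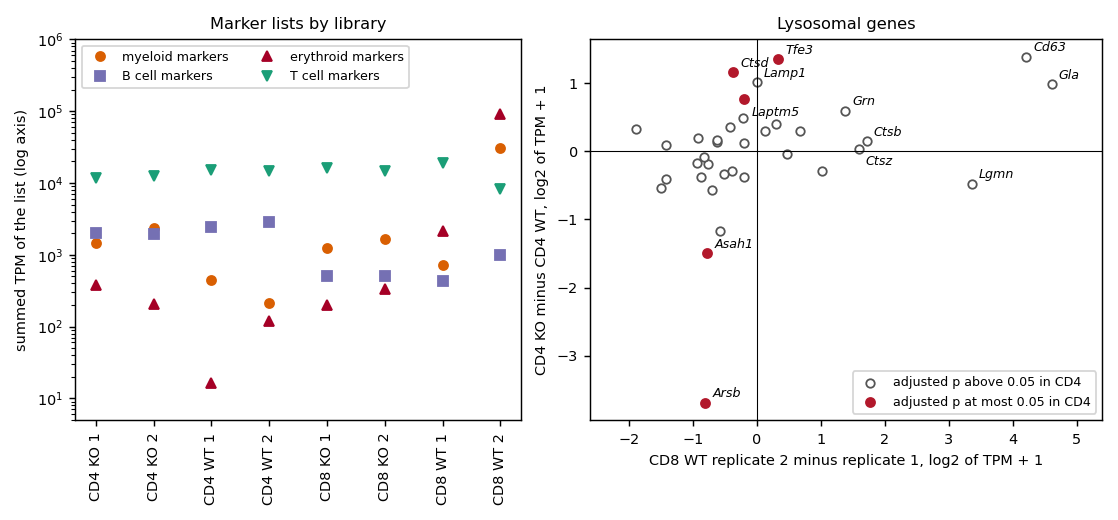
Left, summed TPM of 4 marker lists in each library on a log axis, with the myeloid sum of CD8 WT replicate 2 at 31032. Right, the CD4 KO minus WT log2 difference of each of the 36 genes against its difference between CD8 WT replicates 2 and 1, with Laptm5, Ctsd and Tfe3 near 0 on the horizontal axis and Gla, Cd63 and Lgmn far to the right.

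Long genes read lower in the KO libraries, and the members are therefore also given by genomic span. Among the 1030 genes with a span of 100 kb or more, 90.0% read lower in CD4 KO cells with a median log2 difference of -1.13, and 23.7% were called lower. In CD8 KO cells 81.7% of them were lower, with a median of -0.87. Arsb was the sole member of that length, and its log2 difference of -3.69 was below the median of that class. Of the 8 members from 30 to 100 kb, 6 were lower in CD4 KO cells with a median of -0.34, against -0.48 for all genes of that span, but in CD8 KO cells 3 were lower, with a median of 0.23 against -0.30. Of the 18 members from 10 to 30 kb, 7 were lower in CD4 KO cells, with a median of 0.11 against -0.04 for all genes of that span. In CD8 KO cells 11 of the 18 were lower, with a median of -0.18 against 0.01. Of the 9 members under 10 kb, 2 were lower in CD4 KO cells, with a median of 0.30 against 0.16. In CD8 KO cells 2 of the 9 were lower, with a median of 0.15 against 0.11. With the trend over span removed, Arsb (-2.63, adjusted p = 0.0209) and Ctsd (0.92, adjusted p = 0.0492) were called, whereas Tfe3 (1.12, adjusted p = 0.0655), Asah1 (-1.39, adjusted p = 0.0688) and Laptm5 (0.69, adjusted p = 0.0683) were not, and 15 of the 36 genes were higher. Whether gene length has a part in the fall of Arsb beyond this was not tested.

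**Figure D5:**
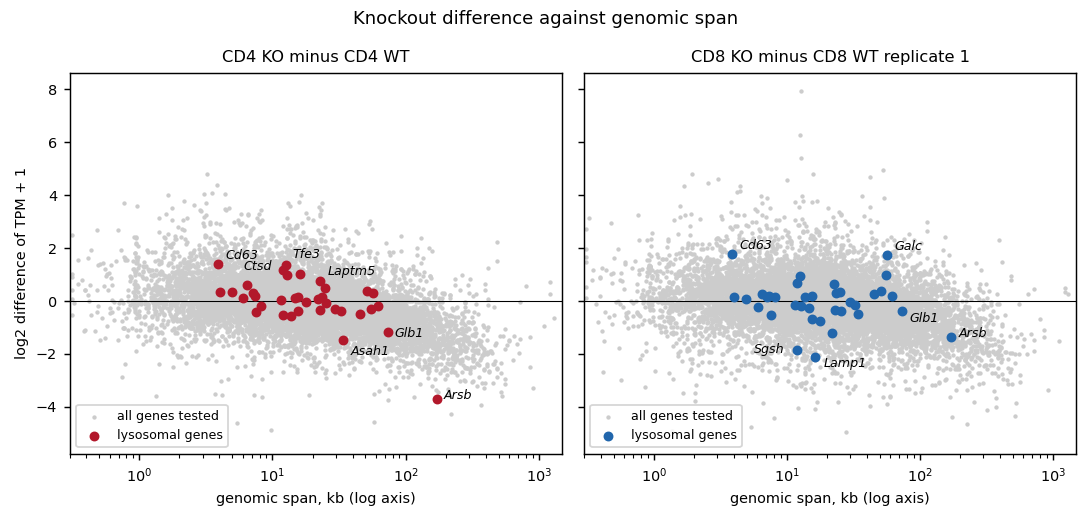
Log2 difference of TPM + 1, KO minus WT, against the genomic span of each gene on a log axis, in CD4 cells (left) and CD8 cells (right), with all 11578 tested genes in grey and the 36 lysosomal genes in colour. The grey cloud tilts down for long genes, and Arsb, at 171 kb, lies at -3.69 in CD4 and -1.35 in CD8.

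Other genes of the lysosomal system were read from lists of known members, chosen with earlier results of these data known. Over all genes 7.99% were called in CD4 KO against WT and 0.846% in CD8 KO against WT. Of the 17 genes of the V-ATPase, the proton pump that acidifies the lysosome, 8 were higher and 9 lower in CD4 KO cells. Of these 1 was called, near the share over all genes, namely Atp6ap1, an accessory subunit. It had 722 and 681 TPM in CD4 KO cells, against 341 and 343 TPM in CD4 WT cells (1.03 ± 0.16, limma, adjusted p = 0.0119). In CD8 cells 13 of the 17 were higher, against 45.1% of all genes, and 0 were called, with 5 at an unadjusted p under 0.05. Of 29 further hydrolases and their activators, 8 were higher and 21 lower in CD4 KO cells, with a median of -0.36, and 0 were called, with 6 at an unadjusted p under 0.05. In CD8 cells 11 were higher and 18 lower, and 0 were called, again with 6 at an unadjusted p under 0.05.

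Of 23 further membrane proteins and transporters, 8 were higher in CD4 KO cells and 2 were called, near the 7.99% over all genes. Spns1, a lysosomal lipid transporter, had 241 and 230 TPM in CD4 KO cells, against 53.4 and 125 TPM in CD4 WT cells (1.52 ± 0.36, adjusted p = 0.0392). Cd68, which is also on the myeloid list, had 65.7 and 51.3 TPM in CD4 KO cells, against 13.9 and 11.5 TPM in CD4 WT cells (2.12 ± 0.31, adjusted p = 0.0101). In the sorting machinery 21 genes were tested, 8 of them higher in CD4 KO cells, and 3 were called, against the same 7.99% over all genes. Vps41, a tethering subunit for fusion with lysosomes, was at 28.6 and 24.6 TPM in CD4 KO cells, against 130 and 120 TPM in CD4 WT cells (-2.19 ± 0.23, adjusted p = 0.00401), and it spans 150 kb. Nagpa, which uncovers the mannose phosphate tag, also fell, and Vps11, a core tethering subunit, rose, by -1.10 and 0.94 on the log2 scale (adjusted p = 0.0214 and 0.0444). In CD8 cells 0 genes of these lists were called, with 6 transporters or membrane proteins and 4 sorting genes at an unadjusted p under 0.05.

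The nutrient-sensing list held the only gene of the lysosomal lists called in both lineages. Flcn, folliculin, activates the Rag GTPases that recruit Tfeb and Tfe3 to the lysosome for phosphorylation. It had 656 and 828 TPM in CD4 KO cells, against 223 and 261 TPM in CD4 WT cells (1.61 ± 0.18, limma, adjusted p = 0.00467). In CD8 cells it had 544 and 565 TPM in KO, against 215 TPM in WT replicate 1 and 244 TPM in replicate 2 (1.36 ± 0.23, adjusted p = 0.0392). All KO libraries were far above all WT libraries, with no overlap. The CD4 call held with all 8 libraries (limma, adjusted p = 0.0416) and under 15 of 18 alternatives in all (0.00195 to 0.0766), the exceptions being no filter and the loss of CD4 KO replicate 1 or 2. The CD8 call held under 7 of 18 (0.0174 to 0.359) and was lost with all 8 libraries (0.108), in a fit of the CD8 groups alone (0.176), and without CD4 WT replicate 1 or any single KO library (0.0622 to 0.185). Ppp3ca, a catalytic subunit of calcineurin, the phosphatase that acts on Tfeb, was at 2.33 and 6.15 TPM in CD4 KO cells, against 28.8 and 17.8 TPM in CD4 WT cells (-2.28 ± 0.55, adjusted p = 0.0436), and it spans 265 kb. With all 8 libraries Flcn kept its CD4 call, whereas the other CD4 calls of these lists were lost, with an adjusted p of 0.114 for Atp6ap1, 0.158 for Spns1, 0.178 for Cd68, 0.0684 for Vps41, 0.248 for Nagpa, 0.199 for Vps11 and 0.108 for Ppp3ca. Of the 20 genes tested here 9 were higher in CD4 KO cells and 12 in CD8 KO cells. In CD4 cells 2 of the 20 were called, near the 7.99% over all genes, and in CD8 cells 1 was, against 0.846%.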

How the data were processed

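Naive CD4 and CD8 T cells were profiled by RNA-seq (SMARTER mRNA kit), per the labels' protocols. The submitters' processing notes name HISAT and the build mm10, without versions, and no source used here gives the tool behind the gene tables. The authors deposited TPM per gene, which sums to 1000000 in each library. The deposited tables also hold FPKM, used as an alternative, and a coverage signal, used with FPKM to estimate depth. They hold no read counts, so no counting interval is given. DESeq2 is named in the labels as the tool of the authors and was not run here.

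TPM was summed per symbol and log2(TPM + 1), a pseudocount of 1, was modelled in limma 3.58.1 under R 4.3.3 with an intensity trend and 1 mean per group over 7 libraries. The residual degrees of freedom were 3 and the prior ones 5.36. Genes that averaged at least 1 TPM were tested, p-values were adjusted by Benjamini-Hochberg over all of them, and genes at 0.05 or below are called. Every adjusted p is from limma. Counts at an unadjusted p under 0.05 are given without the share of all genes at that level, so they do not show whether a list stands out. Fold changes on this scale understate changes of weakly expressed genes. Coordinates are those of the tables (mm10). Strand use in counting is not given, so genes that overlap on opposite strands (Ctsa, Ctsb, Ctsz, Idua, Sgsh) may share reads.

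Values in full were given for members called in either knockout comparison, the 3 largest differences in each, the most abundant member of each class, Tfeb and Tfe3. Further members are given because their values stood out. Of the other lists, up to 3 called genes were named. The members and lists were chosen with earlier results of these data known. The fitting steps were tested on simulated data. Alternatives were all 8 libraries, library weights, the compared groups alone, pseudocounts of 0.5 and 5, other filters, median-of-ratios scaling, FPKM, removal of the span trend (loess, span 0.3), a replicate block and leaving out each library.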

Additional observations from a re-analysis of the deposited data

Results flagged for a closer look

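CD8 WT replicate 2 does not enter the main fit. It was set aside with lysosomal genes known to be raised in it in earlier results of these data. The levels given next are thus not separate from that choice. In that library 3 of the 36 genes reached a level more than 2-fold above the highest of the other 7 libraries. Cd63 was at 214 TPM in it, against at most 93.7 TPM elsewhere. Ctsb was at 402 TPM, against at most 189 TPM. Gla, whose product cleaves terminal galactose from glycolipids, was at 141 TPM, against at most 11.4 TPM, a ratio of 12.3. The same library had the highest summed myeloid and erythroid marker levels, and the part of either in these 3 levels was not tested.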

How the results depend on the processing

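The count of lysosomal genes called in CD4 KO against WT, 5, was 1 with all 8 libraries, 0 with no filter on low values, 2 with the span trend removed and 0 to 4 when single libraries were left out. For CD8 KO against WT, 0, and for the difference of effects, 0, the range over left-out libraries was 0 to 9 and 0 to 7, both highs with CD8 WT replicate 2 in place of replicate 1, where 1809 and 1133 of all 11879 genes were called. For CD8 against CD4 it was 0 in KO cells with all 8 libraries or no filter (0 to 2 over left-out libraries), and 0 in WT cells with all 8 libraries, library weights, the compared groups alone or no filter (0 to 6, the high in the same fit, with 1609 calls over all genes). Over all genes the CD8-against-CD4 calls fell too, with all 8 libraries from 210 to 33 in KO cells and from 94 to 23 in WT cells. They were also fewer under the other settings named for each. A replicate block gave 3 CD4 calls, with 723 over all 11578 genes, and 1 CD8-against-CD4 call in KO cells, with 166 over all genes. Replicate numbers are not known to pair libraries: replicate differences correlated between groups at -0.04 to 0.10. The block gave 19 CD8 calls over all genes, against 98. Over all genes the CD4 calls, 925, were 84 with all 8 libraries, 19 with no filter, 436 with the span trend removed, and 16 and 7 without CD4 KO replicate 1 or 2. The genes named by rule and Flcn gave 504 values over both KO comparisons and all settings. Most were not called in the main fit and so could not lose a call. Of the 504, 429 kept direction and side of the threshold, 51 lost and 8 gained a call, and 16 changed sign. All 51 losses fell on results called in the main fit. Those stayed called in CD4 under 15 of 18 alternatives for Arsb and Flcn, 13 for Ctsd, 10 for Tfe3, 8 for Asah1 and 7 for Laptm5. In CD8 Flcn stayed called under 7 of 18. The cause of these changes was not tested. In CD4 the changes of sign were those of Neu1 (-0.19 without the span trend, -0.044 without CD4 WT replicate 1, -0.033 without CD4 KO replicate 2) and Tfeb (0.058 without the span trend, -0.71 to 0.12 over left-out libraries). In CD8 they were Cd63 (-0.33) and Ctsc (0.29) with all 8 libraries, weighted or not, and Arsa (-0.16 without the span trend, -0.20 with the block). Over left-out libraries the CD8 values were -2.43 to 3.03 for Cd63, -0.38 to 0.55 for Arsa, -0.81 to 0.30 for Asah1, -0.019 to 1.18 for Tfeb and up to 0.73 for Ctsc. With 2 libraries or 1 per group and no counts, small differences were not detectable: the smallest called CD4 difference over all genes was 0.64 on the log2 scale.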
